A study of Rattus norvegicus with 44 samples.

Results

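The genes described here are 10 transcripts of cytotoxic lymphocytes, Prf1, Nkg7, Gzmm, Ccl5, Tbx21, Il2rb, Cd247, Lck, Zap70 and Itgal, taken by symbol from the 18347 gene identifiers measured by RNA sequencing in the dentate gyrus (DG) of the rat. They were named with their values in these same rats already known, so their levels, group differences and correlations are given as a description without a test. All 10 were found, 8 with 1 row in the deposited table and 2 (Cd247 and Il2rb) with several, whose values were summed. The study treated male F344 rats from the middle of life with senolytic drugs or vehicle and compared them with young rats. The 44 libraries, 1 per rat, fall into young and older rats. Young rats (YNG, n = 10) were labelled as 6 months old, and the authors' attributes list names their group as young with vehicle. Older rats were labelled as 12 months old, the age at which treatment started, and their tissue was collected some months later. They received vehicle (AV, n = 12), ABT-263 (AA, n = 11) or the combination of dasatinib and quercetin (ADQ, n = 11). ABT-263 inhibits anti-apoptotic proteins of the BCL-2 family, dasatinib is a tyrosine kinase inhibitor and quercetin is a plant flavonoid. The rats had been tested for behavior before tissue collection, and the tissue is a dissected subregion holding many cell types. In such bulk tissue more cells of a type and more RNA per cell cannot be told apart.

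Cytotoxic lymphocytes, that is natural killer (NK) cells and CD8 T cells, kill target cells by releasing granules that hold the pore-forming protein perforin and the serine proteases called granzymes. T cells recognize their target through the T cell receptor, whose signal runs over the CD3 and zeta chains to the kinases Lck and Zap70, while NK cells use other receptors that partly share these chains and kinases. In healthy brain such cells are rare, and the resident immune cells are microglia. The label of this set of genes was checked against defining markers of these cells (Cd8a, Cd3e, Gzma, Gzmb, Gzmk, Ncr1 and Klrd1), which are described after the members.

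The libraries held an estimated 10166691 to 24329811 reads (median 16320203), obtained from the value that 1 read is worth in each library. That value ran from 0.652 to 1.5 normalized units, and every member value below 20 reads was a whole number of reads to a tolerance of 0.05. A value of 0 allows up to 3 reads, which is 1.96 to 4.51 normalized units depending on the library. These limits cover counting error only. All values below are read estimates divided by a size factor per library, not per length, so that levels are compared between rats and never between genes.

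The levels of the members turned on 4 of the 12 AV rats, numbered 3989, 3999, 4009 and 4568. For 6 of the 10 members (Prf1, Nkg7, Ccl5, Cd247, Tbx21 and Il2rb) each of these 4 rats lay above all other 40 rats, a pattern that held for 0.91% of the 15598 genes with a mean of at least 5. The 4 rats were picked out by their values of the members, and these 6 members reach that mean only through them. Nothing is therefore read from that share. For Gzmm, Lck, Zap70 and Itgal they overlapped with the others. Summed over the 10 members, the 4 rats were at 926, 962, 2240 and 2128, and the other 40 rats lay between 225 and 695. The highest of the others was YNG rat V1, whose sum was mostly Gzmm (595). Another AV rat, 4571, was in the top 5 rats for 5 members, at much lower values (sum 484).

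**Figure D1:**
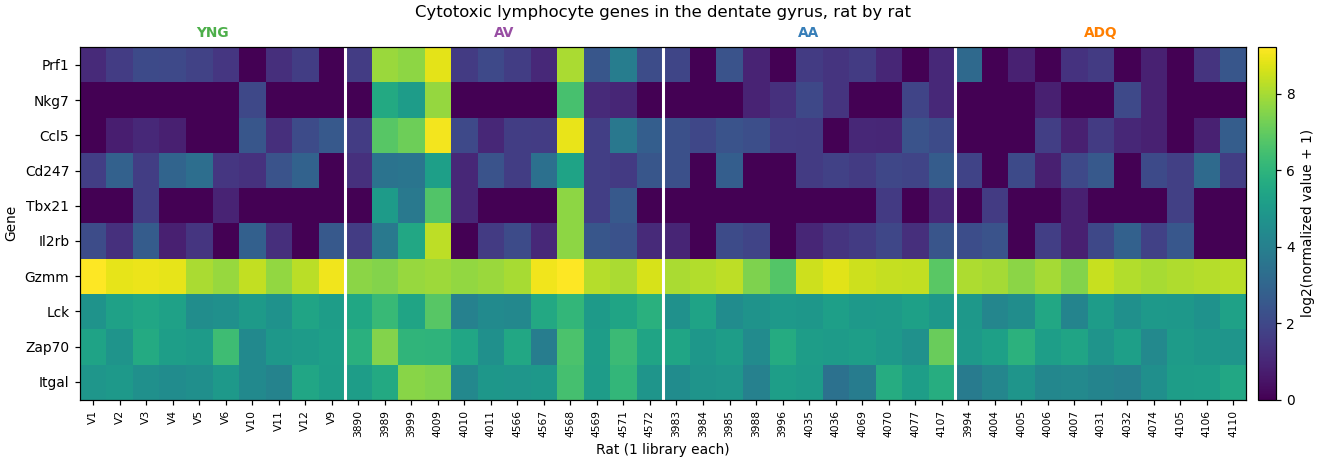
Heat map of log2(normalized value + 1) for the 10 genes (vertical axis) in each of the 44 rats (horizontal axis, in order of group and rat number, white lines between groups). The columns of AV rats 3989, 3999, 4009 and 4568 are bright over the upper rows, whereas Gzmm, Lck, Zap70 and Itgal are present in every rat.

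Perforin and the granule genes are the effectors of killing. Prf1, which encodes perforin, ran from 0 to 3.24 in YNG (median 1.94), from 0 to 4.16 in AA (median 1.09) and from 0 to 7.92 in ADQ (median 0.807). In AV the lowest rat was at 1.07, the median at 3.96 and the highest at 461. The values of rats 3989, 3999, 4009 and 4568 were 228, 199, 461 and 267, which correspond to 208 to 432 reads, against at most 14 reads in any of the other 40 rats. The next AV rat, 4571, was at 13.9, the highest value outside those 4 rats. The medians of YNG, AA and ADQ lay within each other's range, so that their order cannot be separated from the spread between rats.

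Nkg7 encodes a membrane protein of cytotoxic granules. It was at 0 in 9 of 10 YNG rats, 5 of 11 AA rats and 8 of 11 ADQ rats, with no value above 3.13 in these groups. Rats 3989, 3999, 4009 and 4568 had values of 48.1, 33.3, 214 and 91.1 normalized units, whereas the other 8 AV rats ran from 0 to 1.13. No rat outside those 4 had more than 3 reads for this gene, so among the remaining rats differences in Nkg7 were not detectable at this depth.

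Gzmm encodes granzyme M, a granule protease of NK cells. Like Lck, Zap70 and Itgal it was present in every rat, from 106 in AA rat 3996 to 595 in YNG rat V1. The values of rats 3989, 3999, 4009 and 4568 were 182, 219.7, 231 and 587, of which only that of rat 4568 lay above the range of the other 8 AV rats (197 to 523) and that of rat 3989 below it. The median of YNG was 399, followed by AA at 316, ADQ at 267 and AV at 244, and the ranges of all groups overlapped. YNG had a mean of 388 ± 137 (SD, n = 10) and AV one of 299 ± 134 (SD, n = 12).

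Ccl5 encodes a chemokine released by activated T and NK cells that attracts other leukocytes. It ran from 0 to 5.0 in YNG (median 0.922), from 0 to 4.16 in AA (median 2.91) and from 0 to 5.58 in ADQ (median 0.807). In rats 3989, 3999, 4009 and 4568 it reached 112, 145, 529 and 487. Rat 4571 followed at 11.9, and the remaining 7 AV rats lay between 1.02 and 5.67. The lowest of those 4 rats was thus far above the highest of all others.

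Tbx21 and Il2rb belong to the program and the cytokine input of these cells. Tbx21 encodes T-bet, the T-box transcription factor that drives the cytotoxic and type 1 program. It was at 0 in 30 of the 40 other rats and reached 4.96 there in rat 4571, whereas rats 3989, 3999, 4009 and 4568 were at 32.1, 12.4, 104.5 and 203. Il2rb encodes the beta chain shared by the receptors for interleukin 2 and interleukin 15. It was between 0 and 6.26 in the other 40 rats and at 12.3, 45.6, 311 and 200.3 in the same 4 rats. For both genes rats 4009 and 4568 were the highest, and the values of rats 3989 and 3999 were several times lower.

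Cd247, Lck and Zap70 act in turn in signaling from the T cell receptor. Cd247 encodes the zeta chain, which NK cell receptors also use, and was at 10.4, 11.1, 36.3 and 39.8 in rats 3989, 3999, 4009 and 4568. The highest of the other 40 rats, AV rat 4567, was at 9.63, so that rats 3989 and 3999 were only just above it. In reads, the 4 rats had 11 to 34 and the others at most 11.

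Lck, the kinase that starts the signal, was present in every rat, from 15.4 to 56.7 in the other 40 rats and at 73.6, 40.4, 112 and 68.0 in those 4. Zap70, the kinase recruited to the phosphorylated zeta chain, lay between 13.9 and 137 in the other 40 rats and at 180.2, 65.2, 62.9 and 96.3 in those 4. AA rat 4107 had the second highest value of Zap70 (137), and rat 4571 had 77.4. The 4 rats thus overlapped with the rest for both kinases.

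Itgal encodes the alpha chain of the integrin LFA-1, with which lymphocytes adhere to their targets and to vessel walls. It was between 9.73 and 67.5 in the other 40 rats. Rats 3999 and 4009 stood out with 191 and 178, rat 4568 had 89.9, and rat 3989 (47.2) lay below rat 4571 (67.5) and AA rats 4107 (52.6) and 4070 (51.9). Across the set the 4 rats therefore differed in which genes were highest: rat 4009 had the top value of Prf1, Nkg7, Ccl5, Il2rb and Lck, rat 4568 that of Cd247 and Tbx21, rat 3999 that of Itgal and rat 3989 that of Zap70.

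**Figure D2:**
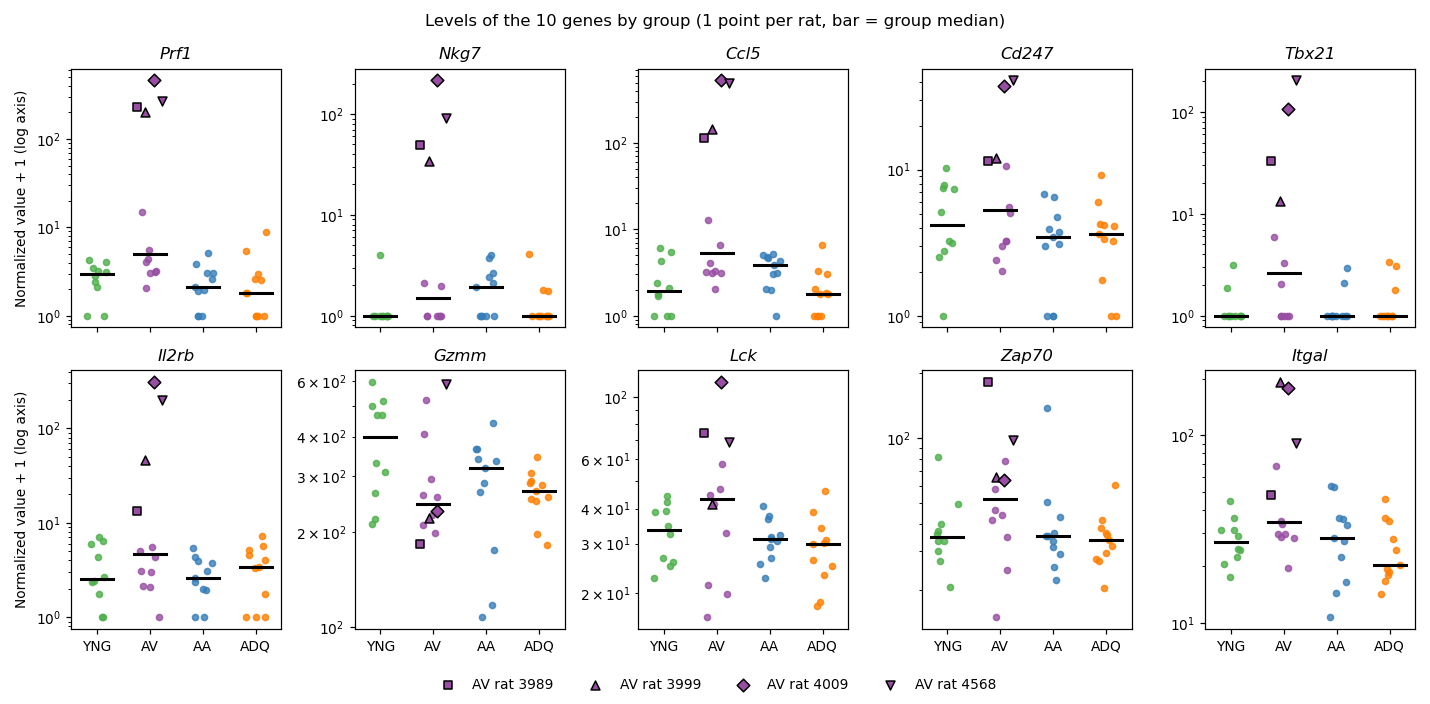
Normalized value + 1 (vertical log axis, scaled for each gene) of the 10 genes in YNG, AV, AA and ADQ, with 1 point per rat, a bar at the group median and AV rats 3989, 3999, 4009 and 4568 drawn as outlined symbols. For Prf1, Nkg7, Ccl5, Cd247, Tbx21 and Il2rb these 4 rats lie above all other rats, while the AV medians for Prf1 (3.96) and Ccl5 (4.38) stay close to the other groups.

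The 250 bases before the annotated start of 4 members are shown because Prf1, Nkg7 and Tbx21 moved together in these rats and Gzmm did not. They come from RefSeq on the GRCr8 build, which is not the rn6 build of the deposited values, and 7 of the 10 members had an entry (Prf1, Nkg7, Cd247, Tbx21, Gzmm, Lck and Zap70). Capitals mark matches, on either strand, to the T-box letters GGTGTGA, the RUNX letters TGTGGT and the STAT letters TTCNNNGAA.
Prf1, chr20:29788790-29789039, plus strand: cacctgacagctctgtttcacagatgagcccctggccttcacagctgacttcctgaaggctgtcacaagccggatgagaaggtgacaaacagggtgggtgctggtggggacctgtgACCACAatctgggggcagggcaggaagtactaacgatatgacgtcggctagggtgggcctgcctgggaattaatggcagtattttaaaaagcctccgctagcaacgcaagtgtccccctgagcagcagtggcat
Nkg7, chr1:102981247-102981496, plus strand: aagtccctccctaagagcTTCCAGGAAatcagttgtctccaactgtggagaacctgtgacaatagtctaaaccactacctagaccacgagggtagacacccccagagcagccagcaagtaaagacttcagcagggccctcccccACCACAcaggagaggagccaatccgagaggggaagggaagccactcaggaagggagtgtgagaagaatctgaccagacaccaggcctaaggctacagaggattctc
Tbx21, chr10:82595254-82595503, minus strand: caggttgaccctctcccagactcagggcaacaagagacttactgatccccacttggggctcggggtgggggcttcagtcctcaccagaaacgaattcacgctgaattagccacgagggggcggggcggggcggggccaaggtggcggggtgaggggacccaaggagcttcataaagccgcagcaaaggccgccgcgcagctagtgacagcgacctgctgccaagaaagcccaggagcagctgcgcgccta
Gzmm, chr7:10667257-10667506, minus strand: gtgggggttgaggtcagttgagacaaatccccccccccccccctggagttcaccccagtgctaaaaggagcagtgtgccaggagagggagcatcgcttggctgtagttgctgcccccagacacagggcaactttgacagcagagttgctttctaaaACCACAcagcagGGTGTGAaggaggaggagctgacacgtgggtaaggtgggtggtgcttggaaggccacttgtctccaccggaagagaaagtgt
The T-box letters occurred in the window of 1 member, Gzmm, against 3.22% of 33469 promoter windows of the same length. The RUNX letters occurred in those of Gzmm, Lck, Nkg7 and Prf1, against 14.5% of all windows. The STAT letters occurred in that of Nkg7, against 7.67%. A match describes the letters and is not a binding site.

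Group differences were taken from a limma fit of log2(value + 1) over 15598 genes with a mean of at least 5. All 10 members passed this filter, but Prf1, Nkg7, Ccl5, Cd247, Tbx21 and Il2rb did so only through these AV rats, with means below 5 in YNG, AA and ADQ, and without rats 3989, 3999, 4009 and 4568 only 4 members pass. Between AV and YNG the log2 difference was 2.91 ± 0.73 (SE) for Ccl5, 2.77 ± 0.73 for Prf1, 2.12 ± 0.66 for Tbx21 and 2.06 ± 0.713 for Nkg7. It was smaller for Il2rb (1.63 ± 0.673), Itgal (0.84 ± 0.311), Cd247 (0.70 ± 0.49), Zap70 (0.51 ± 0.282) and Lck (0.37 ± 0.223), and negative for Gzmm (-0.39 ± 0.218). At an unadjusted p of 0.05, the threshold of the study, 6 of the 10 members were higher in AV, as were 10.6% of all genes tested. At the same threshold after Benjamini-Hochberg adjustment 2 members were higher, Prf1 and Ccl5, as were 1.81% of all genes. The members were chosen on these values, so nothing is read from these counts.

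Both treated groups were compared with the same AV rats. In AA the log2 difference from AV was -2.996 ± 0.712 for Prf1, -2.33 ± 0.712 for Ccl5 and -2.13 ± 0.644 for Tbx21. In ADQ it was -3.02 ± 0.712 for Prf1, -3.14 ± 0.712 for Ccl5 and -1.99 ± 0.644 for Tbx21. At the unadjusted threshold 7 members were lower in AA (3.1% of all genes were lower) and 9 in ADQ (5.9% of all genes were lower), in each case without Gzmm (-0.10 ± 0.213 and -0.09 ± 0.213). Without rat 4568 alone these counts were 4 and 6. After adjustment limma called 0 members and 0% of all genes in both comparisons. The members were chosen with these values known, and 6 of them pass the filter on low values only through the 4 AV rats. Nothing is therefore read from these counts either.

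Relative to YNG, Gzmm alone among the members passed the unadjusted threshold in the treated groups. The median log2 difference of the 10 members was -0.0437 in AA and -0.206 in ADQ relative to YNG, against 0.000671 and 0.00566 over all genes, and Gzmm was lower by 0.50 and 0.49 on the log2 scale with SE 0.223 in both (lower at the unadjusted threshold were 14.1% and 14.6% of all genes). Between AA and ADQ the median was 0.0786 and limma called 0 members at the unadjusted threshold, where 4.53% of all genes passed. The largest difference there was that of Ccl5, 0.81 ± 0.727.

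These differences rest on the 4 rats. Without them the median log2 difference between AV and YNG of the 4 members that still pass the filter was 0.0391, that between AA and AV was -0.0907 and that between ADQ and AV was -0.2. With no filter on low values, Prf1 without the 4 rats differed between AV and YNG by 0.76 ± 0.414 and Ccl5 by 0.92 ± 0.406, whereas Nkg7 (0.06 ± 0.331), Il2rb (0.04 ± 0.441) and Cd247 (-0.13 ± 0.451) were near 0. Relative to these 8 AV rats, Prf1 differed by -1.01 ± 0.405 in ADQ and by -0.98 ± 0.405 in AA. Ccl5 differed by -1.15 ± 0.397 in ADQ and by -0.34 ± 0.397 in AA. Nkg7 differed by 0.08 ± 0.324 in ADQ and by 0.52 ± 0.324 in AA. Among these 8 rats, rat 4571 was the highest for Prf1 (13.9) and Ccl5 (11.9). The Gzmm difference between AV and YNG was about the same with the 4 rats (-0.39) and without them (-0.38 ± 0.234). Leaving out a single rat changed the number of members called between AV and YNG to between 4 (without rat 4009) and 8, and no member passed the adjusted threshold without rat 3989 or without rat 4009.

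**Figure D3:**
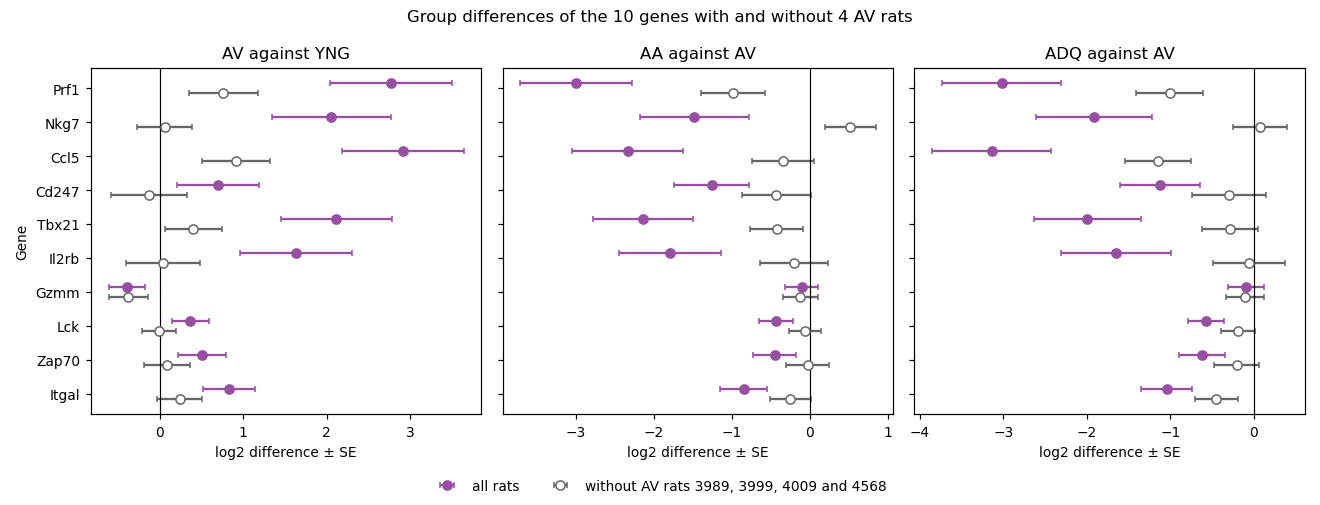
Log2 difference ± SE (horizontal axis) of each gene (vertical axis) for AV against YNG, AA against AV and ADQ against AV, with all rats (filled points) and without AV rats 3989, 3999, 4009 and 4568 (open points, no filter on low values). The filled points of Prf1, Nkg7, Ccl5, Tbx21 and Il2rb lie far from 0, the open ones lie closer to it, and those of Gzmm coincide.

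Over all 44 rats the members were correlated with each other, Gzmm excepted. The median Pearson r of log2 values over the 45 pairs was 0.566 and the median Spearman rho was 0.242, with 29 pairs above an r of 0.5. The strongest pair was Nkg7 and Ccl5 (r = 0.882), followed at the same r of 0.851 by Prf1 with Tbx21, Prf1 with Ccl5 and Nkg7 with Tbx21. Gzmm had a median r of -0.00872 with the other 9 members, from -0.35 with Zap70 to 0.249 with Lck. The rats fall into the 4 with high values and the rest, so that an r over all 44 is not the relation within either set. In the other 40 rats the median r was 0.0234, no pair was above 0.5, 19 of 45 pairs were negative and the highest was that of Prf1 and Cd247 (0.482).

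Within groups the same contrast appeared. The median r of the 45 pairs was 0.728 among the 12 AV rats, -0.0127 among the 10 YNG rats, 0.0411 among the 11 AA rats and 0.0448 among the 11 ADQ rats. Rats with lower numbers (n = 22, with rats 3989, 3999 and 4009 among them) gave a median r of 0.646. Rats with higher numbers (n = 22, with rat 4568 among them) gave one of 0.529. The median Spearman rho was 0.295 and 0.186, with 5 and 12 of 45 pairs negative. A single rat as high as rat 4568 can set the r of the second set, so nothing is read from it. The genes of a pair share a library and its depth, and outside the 4 rats most values of Prf1, Nkg7, Ccl5, Tbx21, Cd247 and Il2rb were at 3 reads or fewer.

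**Figure D4:**
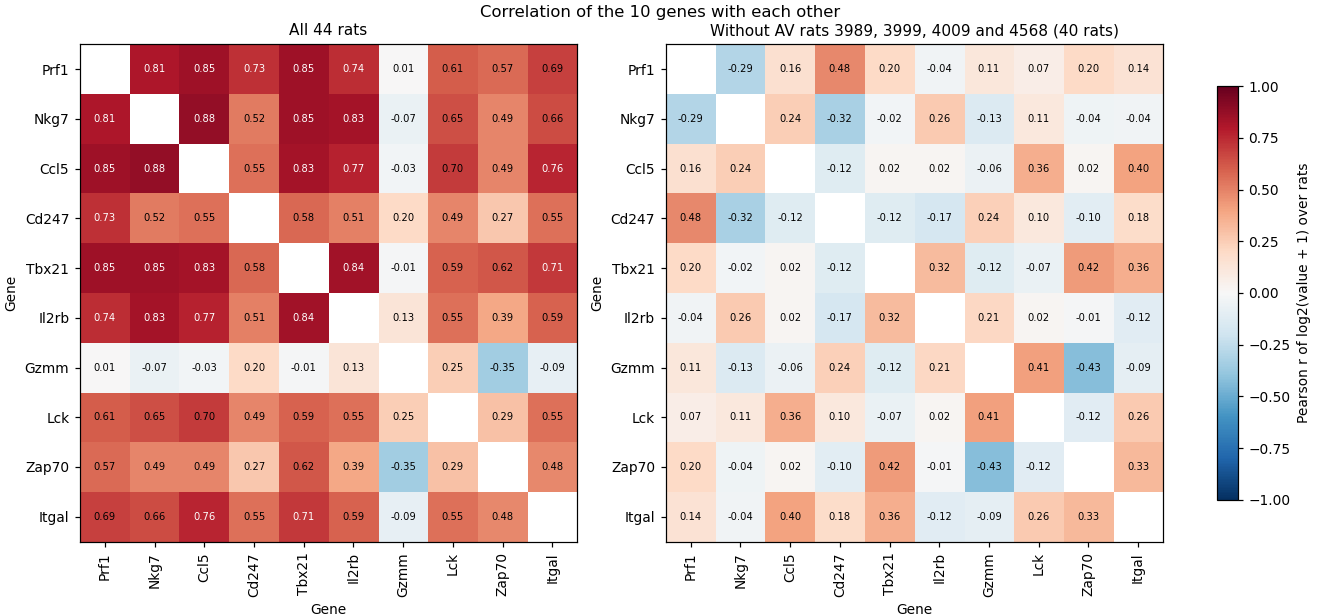
Pearson r of log2(value + 1) for each pair of the 10 genes over all 44 rats (left) and over the 40 rats without AV rats 3989, 3999, 4009 and 4568 (right), with r printed in each cell. The left panel is red throughout except for the row and column of Gzmm, and the right panel is a mixture of weak positive and negative values (median 0.0234).

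The genes most like the members were looked for by Spearman rho between each of the other genes and the mean of the members' standardized log2 values over the 44 rats. The 10 highest were LOC103690108 (rho 0.768), Ramp2 (0.746), Hbb-bs (0.737), Mt1m (0.736), Upp1 (0.735), Laptm5 (0.734), RT1-CE4 (0.722), Csf1r (0.719), Klrb1b (0.708) and Psmb9 (0.707). Of these, RT1-CE4 is an MHC class I gene, Psmb9 an immunoproteasome subunit, Csf1r a receptor of microglia and macrophages, Hbb-bs a beta globin of red blood cells and Klrb1b a lectin-like receptor of NK cells. For none of the 10 did all 4 rats lie above the other 40. Mt1m came closest, at 1090, 698.5, 321 and 736 in rats 3989, 3999, 4009 and 4568 against at most 516 in the others, so that 3 of the 4 were above. Psmb9 was at 104, 149, 82.1 and 71.9 in the same rats and between 24.8 and 92.02 in the others. Their r with this mean in the other 40 rats ran from 0.572 for Ramp2 to 0.679 for Upp1. There the mean leans on Gzmm, Lck, Zap70 and Itgal, which are present in every rat. The other members were mostly at 3 reads or fewer there and were standardized over all 44 rats. The members had a median r of 0.0234 with each other in those 40 rats, so the r above is not a likeness to each member.

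By Pearson r, a measure added after the values were seen, the order was led by Cd8a (r = 0.898), Gzmk (0.884), Arpc1b (0.871), Gzmbl2 (0.871) and Adgre5 (0.856), followed by Anxa2, Cd93, Tgm2, Rac2 and Tagln2 (0.848 to 0.81). Cd8a, the gene of the alpha chain of CD8, was at 49.05, 6.52, 88.5 and 117 in rats 3989, 3999, 4009 and 4568 and at most 3.40 in the other 40 rats. Gzmk, the gene of granzyme K, was at 14.2, 20.2, 210.1 and 173 there and at most 2.42 elsewhere. Adgre5, an adhesion receptor of leukocytes known as CD97, was at 189.6, 181, 321 and 234 against 45.7 to 107.5 in the others.

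A list of other cytotoxic and NK cell genes held 39 symbols, of which 32 were in the table (Ifng was not analysed here) and 7 passed the filter on low values. In 26 of the 32 the highest of all 44 rats was 1 of the 4 rats, which held for 21.4% of all genes, and in 12 of the 32 all 4 rats lay above the other 40, which held for 0.965% of all genes. Gzmb, the gene of granzyme B, was at 28.2, 41.1, 51.2 and 15.1 in rats 3989, 3999, 4009 and 4568 and at most 2.44 in the others. Gzma, the gene of granzyme A, was at 3.77, 10.4, 23.5 and 16.7 against at most 2.496.

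Some receptors of NK cells on this list went with these and others did not. Ncr1, the gene of the NK cell receptor NKp46, was at 4.72, 9.78, 44.8 and 33.4 in rats 3989, 3999, 4009 and 4568 and at most 1.99 in the others. Klrd1, the gene of the receptor chain CD94, was at 15.1, 2.61, 12.8 and 3.85 against at most 1.87. Its values in rats 3999 and 4568 were near the limit of 3 reads, which is 1.96 to 4.51 normalized units. Rats 4009 and 4568 were thus the highest for Ncr1, as for Il2rb and Tbx21, while rat 3989 was the highest for Klrd1. Among the receptors that did not follow, Ncr3 was highest in AV rat 4567 (6.42) and Cd244 in ADQ rat 4074 (64.6). Ncr3 was named after its values were seen.

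In the limma fit 4 of the 7 tested genes of this list were higher in AV than in YNG (Serpinb9, Gzmk, Srgn and S1pr5) and 0 were lower, beside 10.6% of all genes that were higher, with a median log2 difference of 0.40 against -0.00172 over all genes. Of these, Serpinb9 (76.5 to 194), Srgn (56.1 to 162) and S1pr5 (334 to 1072) were present in all of the other 40 rats. Which cells they come from was not tested. Gzmk passed the filter on low values only through the 4 rats, with means of 0.531 in YNG, 0.187 in AA and 0.515 in ADQ, and 6 genes are tested without them. Serpinb9, an inhibitor of granzyme B that protects cells from their own granules, passed the adjusted threshold with a log2 difference of 0.54 ± 0.127 (adjusted p = 0.0128), and it averaged 111 ± 23.3 (SD) over the 10 YNG rats and 164.5 ± 47.8 over the 12 AV rats. Without the 4 rats its adjusted p was 0.382, and 2 genes of the list remained at the unadjusted threshold, beside 9.31% of all genes called in either direction. In AA 3 of the 7 were lower than in AV (Gzmk, Cd244 and Serpinb9) and in ADQ 3 (Gzmk, Srgn and S1pr5), beside 3.1% and 5.9% of all genes, with 0 after adjustment by limma. Srgn, S1pr5 and Cd244 were named after their values were seen.

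**Figure D5:**
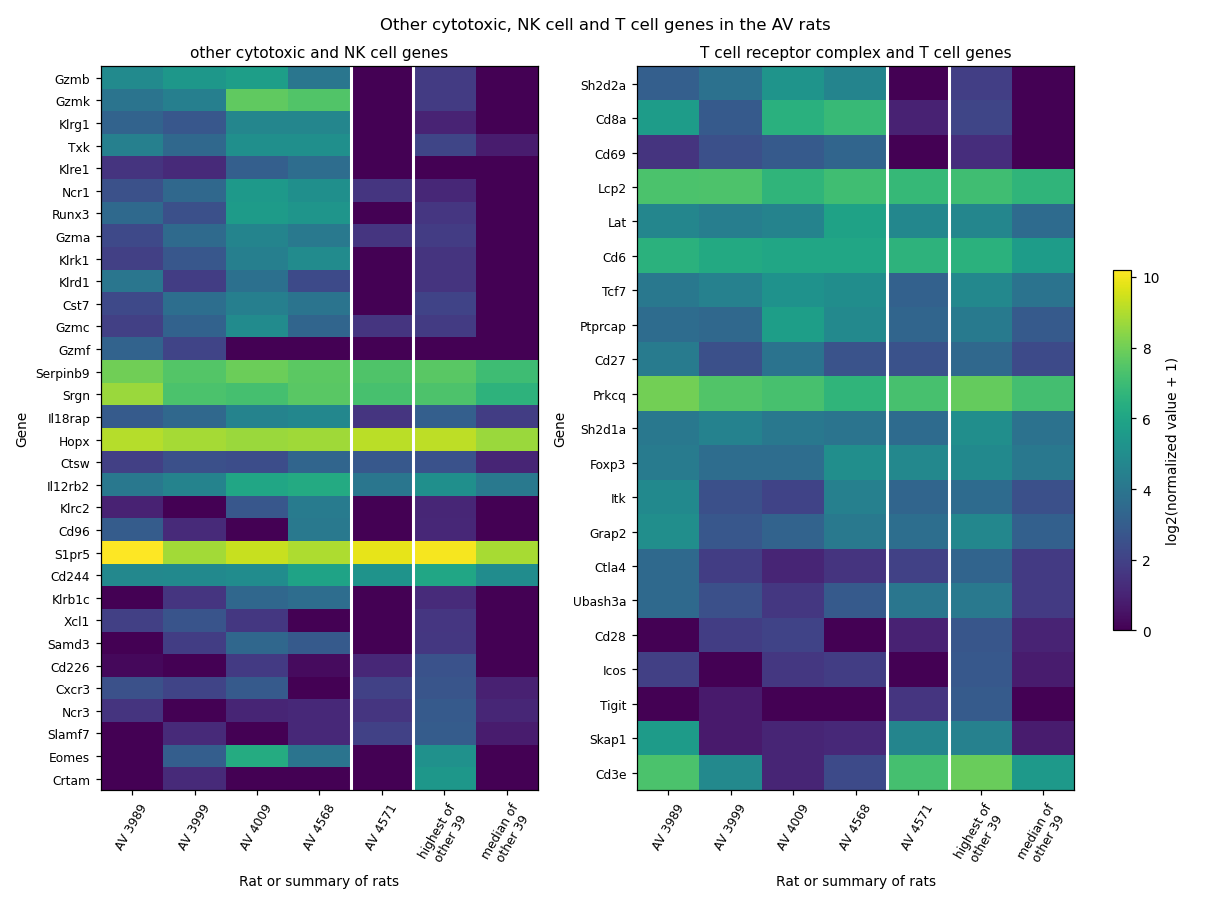
Log2(normalized value + 1) of the 32 other cytotoxic and NK cell genes (left) and the 21 T cell genes (right) in AV rats 3989, 3999, 4009, 4568 and 4571, with the highest value and the median of the other 39 rats. Genes are ordered by how far the lowest of the first 4 rats lies above the others, from Gzmb and Sh2d2a at the top to Crtam and Cd3e at the bottom.

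T cell genes followed the members in part. Of 32 symbols listed, 21 were in the table (Cd3d, Cd3g and Cd8b were not analysed here) and 12 were tested. In 3 of the 21 all 4 rats lay above the other 40, which held for 0.965% of all genes. Cd3e, the gene of a chain that every T cell receptor complex carries, did not follow: it was at 159, 26.7, 1.07 and 3.85 in rats 3989, 3999, 4009 and 4568, at 233 in AV rat 3890 and at a median of 47.0 in the other 40 rats. Rats 4009 and 4568, which had the highest Prf1 and the highest Cd8a, were thus below that median. Cd8a therefore did not go with Cd3e in these rats. Cd4, the coreceptor gene of helper T cells that microglia and macrophages of the rat express as well, was at 209, 187, 99.2 and 123 there and between 57.2 and 296 in the others.

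Relative to YNG 5 of the 12 tested T cell genes were higher in AV (Cd6, Cd8a, Tcf7, Lat and Lcp2), beside 10.6% of all genes, and 0 lower, with a median log2 difference of 0.53. Cd8a passed the filter on low values only through the 4 rats, with means of 0.294 in YNG, 0.254 in AA and 0.656 in ADQ, and 10 genes are tested without them. Cd6, a receptor on T cells that binds adhesion molecules, passed the adjusted threshold (log2 difference 0.59 ± 0.164, adjusted p = 0.0403). Its call was lost without any 1 of 11 rats, and its adjusted p was 0.389 without the 4 rats. Cd8a had a log2 difference of 1.92 ± 0.636 (adjusted p = 0.0899). In AA 2 of the 12 were lower than in AV (Cd8a and Lcp2) and in ADQ 4 (Cd6, Cd8a, Lcp2 and Grap2), beside 3.1% and 5.9% of all genes, with 0 after adjustment by limma. Without the 4 rats the counts were 1, 0 and 1, beside 9.31%, 2.41% and 4.84% of all genes called in either direction. Tcf7, Lat, Lcp2 and Grap2 were named after their values were seen.

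Ligands, receptors and signaling partners of the members were listed as well, with 25 of 26 symbols in the table and 18 tested. Relative to YNG 6 were higher in AV (10.6% of all genes) and 0 lower, 3 of them after adjustment (1.81% of all genes). Without the 4 rats 15 were tested and these counts were 3 and 2, where 9.31% of all genes were called at the unadjusted threshold in either direction. Il2rg, the gene of the common gamma chain of the interleukin 2 and 15 receptors, was among the 6, although its means in YNG (4.95), AA (4.79) and ADQ (3.2) were below the filter, and it was named after its values were seen. Itgb2 encodes the beta chain that pairs with the Itgal product in LFA-1. It was at 383, 282, 262 and 427.5 in rats 3989, 3999, 4009 and 4568 and between 103 and 238 in the others, and it averaged 127 ± 15.1 (SD) over the 10 YNG rats and 235 ± 91.1 over the 12 AV rats. Its log2 difference was 0.80 ± 0.133 (adjusted p = 0.000307), and without the 4 rats it was 0.51 (adjusted p = 0.0115).

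Icam2 encodes a ligand of LFA-1 on endothelium. It averaged 26.3 ± 8.37 (SD) over the 10 YNG rats and 60.3 ± 34.3 over the 12 AV rats, with rat 3989 at 162. The log2 difference was 1.10 ± 0.192 (adjusted p = 7e-04), and 0.80 without the 4 rats (adjusted p = 0.0271). In AA it was also higher than in YNG, by 0.67 ± 0.196 (adjusted p = 0.0471).

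Ptprc encodes CD45, the phosphatase of all leukocytes that releases Lck from inhibition. It was at 137, 80.2, 195 and 236 in rats 3989, 3999, 4009 and 4568 and between 10.8 and 64.5 in the others. Its log2 difference between AV and YNG was 1.49 ± 0.299 (adjusted p = 0.00359), and without the 4 rats 0.82 (adjusted p = 0.172). Csk, the kinase that inhibits Lck, had a log2 difference of -0.28 ± 0.0859 between ADQ and YNG (adjusted p = 0.0416). Jak1, a kinase at the receptors that hold the Il2rb chain, was higher in ADQ than in YNG by 0.26 ± 0.0645 (adjusted p = 0.0198). Stat5b, a transcription factor of the same receptors, was higher in AA than in YNG by 0.79 ± 0.225 (adjusted p = 0.0443). AA rat 3988 had the highest Stat5b (587), with medians of 235 in AA and 141 in YNG. After adjustment 3.12% of all genes were higher and 3.96% lower in ADQ than in YNG, and 1.55% were higher in AA. Relative to AV 4 of the 18 were lower in AA (3.1% of all genes), and in ADQ 8 were lower (5.9%) and 1, Jak1, was higher (3.42%), with 0 after adjustment by limma. Without the 4 rats 0 were lower in AA by limma at the unadjusted threshold, and in ADQ 2 were lower and 1 was higher. Of all genes 2.41% and 4.84% were called there in either direction.

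Markers of other cells moved with the 4 rats as well, and differently in each. Rat 3989 had a sum of 91170 over 6 genes of red blood cells, led by Hba-a2 (32850), against 2369 to 38070 in the other 40 rats, and the highest sums of neutrophil and monocyte genes (381, against 45.6 to 149.7), of genes of meninges and fibroblasts (757, against 237 to 696), of endothelial genes (8122, against 1196 to 4036) and of microglial genes (7448, against 3325 to 6673). All 6 red blood cell genes were highest in this rat. Rat 3999 had the highest sum of 6 genes of MHC class II presentation (6603, against 37.9 to 3040 in the other 40), led by Cd74 at 4005. Rat 4009 had the highest sum of choroid plexus genes (1458, against 25.3 to 1023), led by Ttr at 1224.

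The sums of neutrophil and monocyte genes in rats 3999 (157) and 4568 (169.5) were also above the range of the other 40 rats, and that of rat 4009 (129) lay inside it. Csf3r made up most of the sum in rat 3999 (111.5 of 157) but not in rat 4568 (64.2 of 169.5). It lay between 45.6 and 116.1 in the other 40 rats. Single genes gave another order. Ngp was at 56.6, 4.56, 33.1 and 43.65 in rats 3989, 3999, 4009 and 4568 and at most 7.30 in the others. S100a8 was at 105.6, 2.61, 2.13 and 33.4 against at most 5.40. These 3 genes were named after their values were seen. In rat 4568 the sums of red blood cell (6901), choroid plexus (142) and MHC class II genes (354) lay inside the range of the other 40 rats. The sum of the 5 endothelial genes was higher in all 4 rats than in any other (8122, 4357, 4249 and 4789), but only 1 of the 5, Cdh5, was above the other 40 rats in each of them. The 3 B cell genes in the table summed to 12.3, 12.05, 10.3 and 5.14 there and to 1.62 to 17.01 in the others, with no gene highest in any of the 4. Granule cell genes of the DG, with Prox1 among them, summed to 6967 in rat 3989 and to 13630, 9658 and 13650 in rats 3999, 4009 and 4568, within the range of 3731 to 14970 in the others. The part of these cells in the levels of the members was not tested.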

How the data were processed

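RNA of the dentate gyrus of 44 rats was sequenced by the authors on an Ion platform, 1 poly(A)-selected library per rat. Per the submitters' notes the authors aligned the reads to rn6 with STAR 2.5.3a in Partek Flow and scaled them with DESeq2. The deposited values are normalized signal, that is read estimates scaled by 1 factor for each library. There are 24694 rows for 18347 gene identifiers, and rows of 1 identifier were summed. Values below 20 reads were whole multiples of the value of 1 read, to a tolerance of 0.05, for 79.6% to 84.4% of values. Whole reads were thus not recovered for the remaining values, and no count model was used. Depth is thus an estimate (10166691 to 24329811 reads per rat). The sample labels give the age only, and the authors' attributes list, joined by the name of the rat, gave the treatment.

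Genes with a mean of at least 5 (15598) were fitted as log2(value + 1) with limma 3.58.1 in R 4.3.3, all 4 groups in 1 fit, empirical Bayes with a trend, two-sided. A call is an unadjusted p below 0.05, the threshold of the study, with Benjamini-Hochberg adjusted p beside it, and the fit was tested on simulated data. Fold changes understate the change of low genes. Python 3.11.15 with numpy 2.4.6, pandas 2.3.3 and matplotlib 3.10.9 was used for the rest. Besides the members, genes were named if they belonged to 3 pathway lists and passed the adjusted threshold in any of 6 comparisons, were among the 10 highest by Spearman rho to the members, or were defining markers or the leading gene of a marker list. The members and lists were chosen with earlier results of these data known. Rats with lower numbers (3890 to 4011 and V1 to V6) and higher numbers (4031 to 4572 and V9 to V12) were compared as a split of the series, which the labels do not call a batch. Il2rb and Lck overlap another RefSeq gene model on GRCr8, and whether counting used strand is not given in the sources used here.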

Additional observations from a re-analysis of the deposited data

Results flagged for a closer look

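Single far values were checked in the YNG group only, where 3 of the 18 genes examined had a rat far from the other 9. Chance flags about 1 in 20 groups. Zap70 was at 80.96 in YNG rat V6, against 48.6 in the next rat, a gap of 0.527 of the whole range. Tbx21 was at 2.16 in YNG rat V3, against 0.89 in the next (gap 0.588 of the range). Nkg7 was at 3.01 in YNG rat V10 and at 0 in the other 9 (gap 1, the whole range). The values of Tbx21 and Nkg7 are at or below 3 reads.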

How the results depend on the processing

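The cause of the changes listed here was not tested, other than where fewer rats or genes entered a fit by construction. Without AV rats 3989, 3999, 4009 and 4568 (chosen after seeing the data) the genes called were 1448 in AV against YNG, 375 in AA against AV and 752 in ADQ against AV (3326, 703 and 1454 with them), the median log2 differences of the members were 0.0391, -0.0907 and -0.2, and the median pairwise correlation was 0.0234. The list counts without them were 2, 0 and 1 for other cytotoxic genes and 1, 0 and 1 for T cell genes, in the same order of comparisons (4, 3 and 3, and 5, 2 and 4 with them).

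In the lower rat numbers alone 5224 genes were called in AV against YNG and 894 in ADQ against AV, and T cell counts were 3, 1 and 2. In the higher numbers alone 976, 1924 and 1069 genes were called in AV, AA and ADQ against YNG, the counts of other cytotoxic genes were 1, 0 and 1 and those of T cell genes 2, 0 and 0. With no filter on low values 16, 15 and 15 other cytotoxic genes were called, since more were tested, and with a mean of at least 20 the T cell counts were 2, 1 and 2. With the 2 groups alone 1 T cell gene was called in AA against AV.

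Leaving out each rat in turn gave 455 (without 3989) to 1055 (without 3985) genes in AA against AV and 470 (without 4107) to 1070 (without 4004) in AA against ADQ. It gave 3 (without 4568) to 7 T cell genes in AV against YNG, 1 in AA against AV (without 4009) and 1 other cytotoxic gene in AA against AV (without 3890). For single genes no direction reversed among the calls. In the higher rat numbers alone 17 single-gene results lost their unadjusted call and 18 did not change sides.

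No paired analysis was possible because the labels number the rats individually and the groups share no numbers. Low members rest on 0 to 3 reads in most rats, so differences among those rats were not detectable at this depth.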
